A study of Mus musculus with 96 samples.

Results

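The neutrophil granule genes examined here are 10 genes chosen by symbol, *S100a8*, *S100a9*, *Camp*, *Ngp*, *Ltf*, *Elane*, *Mpo*, *Prtn3*, *Lcn2* and *Retnlg*, among the 41575 gene symbols of the count table. All 10 were in the table, and each had a count in at least 1 library. Bulk RNA was measured by MuSeq, in which the RNA of each sample is barcoded at reverse transcription and samples are then pooled. There were 96 libraries, 3 from wild-type and 3 from Scx-/- mice for each of 16 tissues taken at an age of 3 weeks. Scx-/- mice lack scleraxis, a transcription factor known for its role in tendon, and the text of the paper does not say which stretch of the gene the allele lacks. The samples were taken as whole organs. Levels are given as CPM, the count scaled to a common library total. Totals ran from 11244 to 1658192 counts, so that 3 counts, the floor used here, stood for 1.81 to 266.8 CPM.

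Neutrophils are short-lived phagocytes that are made in the bone marrow and, in young mice, in the spleen. As they mature they fill their granules in a fixed order. Genes of the primary (azurophil) granules, *Elane*, *Mpo* and *Prtn3*, are transcribed in promyelocytes. Those of the secondary granules, *Camp*, *Ngp*, *Ltf* and *Lcn2*, follow in myelocytes and metamyelocytes. *S100a8*, *S100a9* and *Retnlg* stay high in mature cells, and the first 2 encode a cytosolic protein pair and not a granule protein. Several of the genes are also made by epithelia, *Ltf* and *Lcn2* among them. In bulk samples, fewer cells of a type and less RNA per cell cannot be told apart.

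Since several of the genes rose and fell together across tissues, the sequences at their start sites are shown first. The RefSeq table of promoters (GRCm38.p6, 250 bases before to 50 after the start site) held all 10 genes. For 9 of them the first transcribed bases were found in a GENCODE transcript of the gene, the exception being *Retnlg*, which is not shown. To describe them, 4 short motifs were searched on both strands, TTNNGCAA for C/EBP factors, GAGGAA for PU.1, AATCNNNGC for GFI1 and TATAAA for a TATA box, and no matches overlapped. Matches are in capitals in the following sequences, which cover the chromosome 9 genes, both calprotectin genes, *Lcn2* and 1 primary granule gene.
Camp (chr9:109849407-109849706, minus strand): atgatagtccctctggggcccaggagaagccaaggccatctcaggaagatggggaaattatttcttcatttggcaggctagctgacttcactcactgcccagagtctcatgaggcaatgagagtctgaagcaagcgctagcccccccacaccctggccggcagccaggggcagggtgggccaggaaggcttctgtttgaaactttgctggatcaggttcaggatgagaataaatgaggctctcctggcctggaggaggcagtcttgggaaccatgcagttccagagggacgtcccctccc
Ngp (chr9:110419558-110419857, plus strand): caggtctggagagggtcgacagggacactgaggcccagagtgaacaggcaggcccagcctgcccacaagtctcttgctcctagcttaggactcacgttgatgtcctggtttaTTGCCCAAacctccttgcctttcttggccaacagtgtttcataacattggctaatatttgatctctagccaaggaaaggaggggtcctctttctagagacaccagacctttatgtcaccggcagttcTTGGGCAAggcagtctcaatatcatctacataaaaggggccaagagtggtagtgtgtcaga
Ltf (chr9:111019042-111019341, plus strand): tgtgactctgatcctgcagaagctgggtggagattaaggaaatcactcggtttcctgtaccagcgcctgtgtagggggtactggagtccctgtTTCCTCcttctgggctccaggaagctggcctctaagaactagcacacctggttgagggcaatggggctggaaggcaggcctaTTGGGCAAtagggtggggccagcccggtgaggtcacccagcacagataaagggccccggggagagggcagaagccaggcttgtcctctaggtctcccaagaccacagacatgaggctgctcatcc
S100a8 (chr3:90668821-90669120, plus strand): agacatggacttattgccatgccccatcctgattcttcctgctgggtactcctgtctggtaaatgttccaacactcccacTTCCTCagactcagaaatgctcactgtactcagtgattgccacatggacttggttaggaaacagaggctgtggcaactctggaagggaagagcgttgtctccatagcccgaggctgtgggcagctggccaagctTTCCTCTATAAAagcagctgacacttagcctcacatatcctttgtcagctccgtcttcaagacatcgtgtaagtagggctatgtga
S100a9 (chr3:90695672-90695971, minus strand): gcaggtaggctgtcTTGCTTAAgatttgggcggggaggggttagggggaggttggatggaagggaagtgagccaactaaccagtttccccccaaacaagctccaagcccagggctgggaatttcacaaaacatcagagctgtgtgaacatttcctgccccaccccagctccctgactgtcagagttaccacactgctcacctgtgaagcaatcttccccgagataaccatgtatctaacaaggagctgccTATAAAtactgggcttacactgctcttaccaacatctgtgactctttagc
Lcn2 (chr2:32387690-32387989, minus strand): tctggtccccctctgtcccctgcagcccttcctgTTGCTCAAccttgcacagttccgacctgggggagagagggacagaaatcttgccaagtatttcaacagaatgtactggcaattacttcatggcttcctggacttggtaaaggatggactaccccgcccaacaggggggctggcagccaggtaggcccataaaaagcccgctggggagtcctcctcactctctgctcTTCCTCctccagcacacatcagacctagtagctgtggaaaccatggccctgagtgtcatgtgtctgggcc
Elane (chr10:79886062-79886361, plus strand): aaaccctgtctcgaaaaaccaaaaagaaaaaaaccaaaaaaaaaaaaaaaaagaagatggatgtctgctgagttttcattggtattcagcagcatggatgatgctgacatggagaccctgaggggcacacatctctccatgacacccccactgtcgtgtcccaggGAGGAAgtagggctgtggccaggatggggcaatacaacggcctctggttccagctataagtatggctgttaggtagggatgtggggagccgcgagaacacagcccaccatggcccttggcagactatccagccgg

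The C/EBP letters were found in 5 of the 10 promoters (*S100a9*, *Ngp*, *Ltf*, *Lcn2* and *Retnlg*), against 10.8% of all 32851 promoters in the table. *Ngp* and *Ltf* held the same 8 letters, TTGGGCAA, from base -11 and base -75, counted with 0 as the first transcribed base. The PU.1 letters were in 6 of 10 (28.3% of all promoters), including those of all 3 primary granule genes. The GFI1 letters were in 0 of 10 (10.3% of all), and TATAAA in 2 of 10 (13.6% of all). In *S100a8* it began at base -30, and in *S100a9* at base 0, the first transcribed base. *Camp* held none of the letters searched. A match describes the letters in the window and not a bound site.

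The genes lie in 3 neighbourhoods and 3 single places of the genome (GENCODE M21, GRCm38, the same assembly as mm10). *Camp* (chromosome 9, 109847379 to 109849617, minus strand), *Ngp* (110419747 to 110423012, plus) and *Ltf* (111019271 to 111042767, plus) lie within 1195388 bases. *S100a8* (chromosome 3, 90668978 to 90670035, plus) and *S100a9* (90692632 to 90695721, minus) have start sites 26743 bases apart. *Elane* (chromosome 10, 79886247 to 79888215, plus) starts 3073 bases after the end of *Prtn3* (79874476 to 79883174, plus). *Mpo* is on chromosome 11 (87793581 to 87804413, plus), *Lcn2* on chromosome 2 (32384633 to 32388252, minus) and *Retnlg* on chromosome 16 (48872621 to 48874496, plus). The annotation of *Prtn3* overlaps *Plppr3* on the opposite strand, and that of *Mpo* overlaps the antisense gene *Gm11505*. How the counting treated strand is not given in the sources used here, so reads of such pairs cannot be told apart.

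The 10 genes together were highest in spleen and bone, lower in cartilage and lung, and low elsewhere except in Scx-/- rectum. The wild-type spleen libraries held 13394, 5790.3 and 2213 CPM of the 10 genes, and the Scx-/- spleen libraries 6032, 4965 and 4322. In bone, the values were 5825, 3129 and 1379 CPM in wild-type and 6829.8, 4345 and 3809 in Scx-/- libraries. Cartilage libraries held 395, 1020.1 and 1052 CPM in wild-type mice, and 62.0, 4047 and 6387 in Scx-/- mice. The lung values were 643, 1541 and 827 CPM in wild-type and 636, 686 and 559 in Scx-/- libraries. In cartilage, 1 Scx-/- library lay below, and the other two above, all wild-type libraries.

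Over both genotypes, the mean was 6119 ± 3817 CPM in spleen (SD, n = 6), 4220 ± 1941 in bone, 2160 ± 2509 in cartilage, 815 ± 366 in lung and 612 ± 1287 in rectum. The other 11 tissues followed in the order vascular (111 ± 110.4 CPM), liver (80.1 ± 23.9), intestine (71.5 ± 72.1), heart (42.0 ± 29.9), hippocampus (41.5 ± 52.4), bladder (29.8 ± 44.2), kidney (23.9 ± 17.1), adipose (23.7 ± 28.5), stomach (21.8 ± 20.6), muscle (19.7 ± 25.9) and cortex (17.8 ± 8.09). No tissue of this order stood clear of the next, because the libraries of all neighbouring pairs overlapped. Gene by gene, the step after lung was clear for *S100a8* alone of the 10: every lung library had more *S100a8* than any liver library, the next tissue in the order of that gene. Without spleen wild-type replicate 1, which held more than any other library, the spleen mean was 4664.5 CPM.

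**Figure D1:**
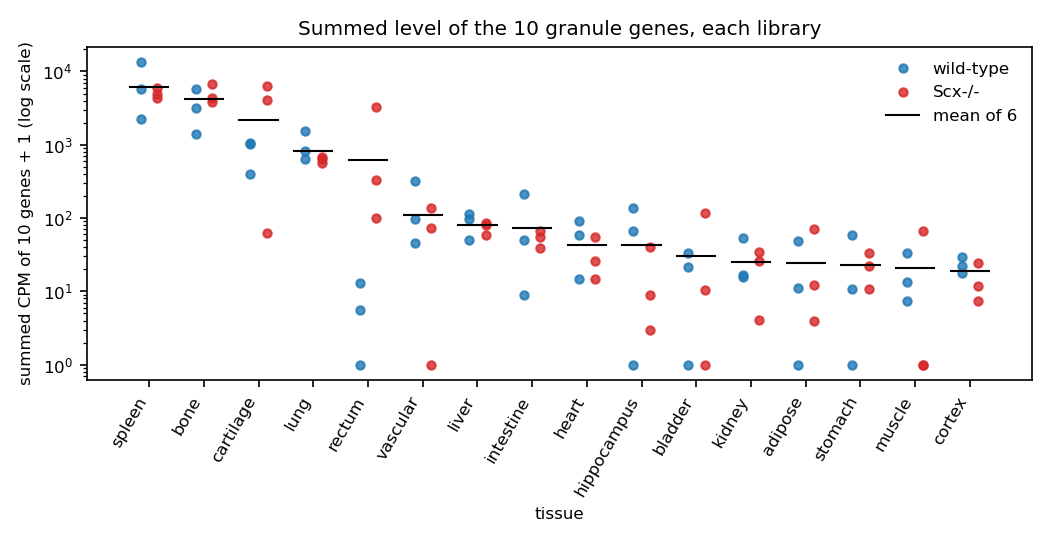
Summed CPM of the 10 genes (plus 1, log scale) in each of the 96 libraries, by tissue in the order of the mean. Points are libraries, blue for wild-type and red for Scx-/-, and black bars are means of 6 libraries; spleen and bone lie highest, and the 3 Scx-/- rectum libraries lie between 99.7 and 3227 CPM above wild-type libraries at 0 to 12.03 CPM.

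The tissue labels were checked against markers of other cells. Osteoblast genes summed to 44214 to 62783 CPM over the bone libraries, and *Sftpc*, the surfactant gene of alveolar cells, was at 20297 ± 2366 CPM in lung and 0 in bone. Skeletal muscle genes took 103933 to 129057 CPM in cartilage and 19971 to 80999 CPM in bone, and chondrocyte genes 1779 to 13128 CPM in cartilage. Erythroid genes, which blood and blood-forming tissue share, summed to 135604 to 324672 CPM in spleen and 13035 to 82924 CPM in bone. Their part in the levels of the granule genes was not tested.

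The late genes took 55.4% to 75% of the counts of the 10 genes in bone libraries and 62.7% to 77.6% in spleen libraries. *S100a8* and *S100a9*, whose products form calprotectin, a metal-binding antimicrobial complex, had means of 1643 ± 908 and 2206 ± 1393 CPM in spleen (SD, n = 6), 1226 ± 463 and 1334 ± 904 in bone, and 642 ± 791 and 706 ± 960 in cartilage. In lung they were at 185 ± 69.2 and 226 ± 156 CPM. *Retnlg*, a resistin-like protein of neutrophils, was highest in bone over both genotypes (263 ± 228 CPM), followed by spleen (123 ± 113), cartilage (106 ± 125) and lung (57.5 ± 54.8). The levels of *Retnlg* overlapped between neighbours of this order. In wild-type libraries alone its mean was lower in bone (81.4 CPM) than in spleen (139.5 CPM). In Scx-/- libraries it was 444 CPM in bone and 107 CPM in spleen.

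Of the secondary granule genes, *Ngp*, a cystatin-like protein, was at 999 ± 638 CPM in spleen and 432 ± 249 in bone, and *Camp*, the cathelicidin precursor, at 440.0 ± 215 and 470 ± 179 CPM. *Ltf*, the iron-binding lactoferrin, was at 287 ± 248 CPM in spleen and 251 ± 142 in bone. *Lcn2*, lipocalin 2, which binds bacterial siderophores, was at 358 ± 320 CPM in spleen, 215 ± 52.2 in lung, 183 ± 99.5 in bone and 143 ± 135 in cartilage.

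The primary granule genes were rare. *Elane*, neutrophil elastase, was counted in 3 of 6 bone libraries (148.5, 70.7 and 40.2 CPM), 4 of 6 spleen libraries (5.51 to 109 CPM) and 3 of 6 cartilage libraries (up to 14.5 CPM). *Prtn3*, proteinase 3, was at 38.6 ± 31.6 CPM in spleen and 16.8 ± 21.6 in bone. *Prtn3* also had 24 counts in cortex (3.90 ± 2.17 CPM, SD, n = 6), where *Elane* had 0. *Plppr3*, the neuronal gene on the opposite strand, was at 23.5 ± 16.9 CPM in cortex, at 72.5 ± 68.0 in hippocampus, where *Prtn3* had 0 counts, and at 0 in bone. Its part in the cortex counts of *Prtn3* was not tested. *Mpo*, myeloperoxidase, which makes hypochlorous acid, had 0 counts in all 6 bone libraries, 2 in spleen and 6 in 1 Scx-/- cartilage library. Over the bone libraries, 0 counts allow up to 4.77 CPM, and MuSeq libraries are enriched in 3′ ends, so low values need not mean an absent transcript.

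**Figure D2:**
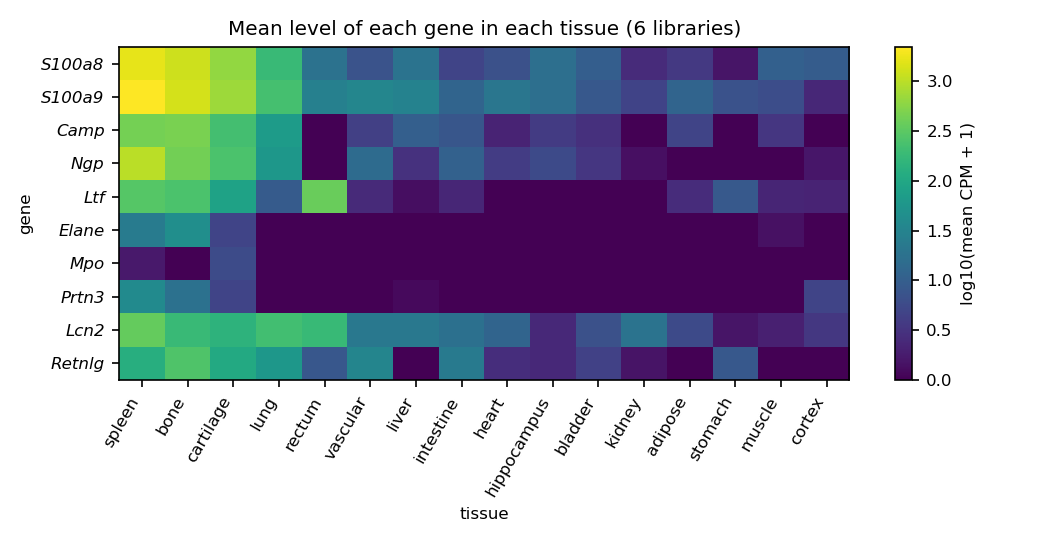
Mean level of each of the 10 genes (rows) in each of 16 tissues (columns, ordered by the summed level), as log10(mean CPM + 1) over 6 libraries. Spleen, bone and cartilage hold most of the genes. Lung has 0 counts of the primary granule genes, with a floor of 3.34 CPM, as have kidney, stomach, rectum and other tissues. Rectum holds *Ltf* at 384.5 CPM and *Lcn2* at 176 CPM with *Camp* and *Ngp* at 0.

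Over the 96 libraries, the levels of the members, as log2(CPM + 1), went together most closely for *Camp* and *Ngp* (Pearson r = 0.87, n = 96 libraries) and for *S100a8* and *S100a9* (r = 0.85). The lowest correlations all involved *Mpo*, from 0.12 with *Prtn3* to 0.31 with *Ngp*. Among the rest, *Lcn2* with *Prtn3* was lowest (r = 0.38). The libraries share tissues and differ in depth, so these values are descriptions. The genes outside the list whose levels were most like the summed level, among 15331 genes with a count in at least 10 libraries, were *Chil3* (r = 0.78), *Slc4a1* (r = 0.71), *Prg2* (r = 0.67), *Kel* (r = 0.66) and *E2f2* (r = 0.66). *Chil3*, a chitinase-like protein of myeloid cells, had its mean of 876 ± 405 CPM in lung above that in spleen, at 389.6 ± 234 CPM. *Slc4a1*, the anion exchanger of red cells, was at 2436 ± 1557 CPM in spleen and 744 ± 387 in bone.

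Bone was compared with spleen, lung and cartilage to place it among the tissues that hold the genes, over both genotypes and 12 libraries each. For bone against spleen, none of the 10 genes was called by edgeR's quasi-likelihood test at a Benjamini-Hochberg adjusted p under 0.05, where 4.98% of all 15424 genes were. At an unadjusted p under 0.05 there were 2, *S100a9* and *Ngp*, and DESeq2 called 0. *Ngp* came closest, with 650.1, 284.5 and 127 CPM in wild-type bone, 790, 290 and 449.5 in Scx-/- bone, 2139, 921 and 205.5 in wild-type spleen and 1077, 953 and 699 in Scx-/- spleen. The ranges overlapped, and the log2 fold change of bone over spleen was -1.45 ± 0.49 (SE, adjusted p = 0.0571). Leaving out bone wild-type replicate 1 put *Ngp* (-1.94, adjusted p = 0.0106, edgeR) and *S100a9* (-1.54, adjusted p = 0.0157) past the threshold. *Ngp* alone passed without bone Scx-/- replicate 1 (-1.81, adjusted p = 0.0272, edgeR) or spleen wild-type replicate 3 (-1.71, adjusted p = 0.0182). With all 12 libraries, *Ngp* was called lower in bone with filterByExpr, and *S100a9* with the replicate block. *Camp* (log2 fold change -0.21 ± 0.54), *Ltf* (-0.43 ± 0.61) and *Elane* (1.07 ± 1.26) had wide intervals that span 0. In simulated data this comparison recovered 3 of 200 changes of 4-fold, so a gene not called is not shown to be equal.

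Since *Elane* and *Prtn3* mark earlier stages than the other genes, the share of primary granule genes among the counts of the 10 genes was compared between bone and spleen. It was 0.893%, 0% and 10.8% in wild-type bone, 1.28%, 1.67% and 0% in Scx-/- bone, 1.42%, 0.893% and 3.81% in wild-type spleen, and 0.425%, 0.432% and 0.127% in Scx-/- spleen. The mean was 2.44% ± 4.14 in bone and 1.19% ± 1.36 in spleen (SD, n = 6). The difference was 1.25 percentage points (p = 0.677, two-sided exact permutation test over 924 assignments, smallest possible 0.0022). It changed sign to -0.42 without bone wild-type replicate 3, in which 7 of 65 counts were *Elane*.

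Against lung, 6 of 9 tested genes were called higher in bone (edgeR, adjusted p under 0.05), where 1.81% of all 15224 genes were called in that direction. They were the calprotectin pair, *Camp*, *Ngp*, *Ltf* and *Elane*. *S100a8* was at 669 to 1794 CPM in bone and 105.5 to 289.5 CPM in lung, without overlap, a log2 fold change of 2.86 ± 0.48 (adjusted p = 4.03e-07, edgeR). *S100a9* was higher by 2.77 ± 0.46 (adjusted p = 2.61e-07, edgeR), although bone wild-type replicate 3, at 42.4 CPM, lay below every lung library. The means were 1334 and 226 CPM.

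*Camp*, *Ngp* and *Ltf* were each near or at 0 in most lung libraries. *Camp* was at 433, 485 and 191 CPM in wild-type and 719, 402 and 591 in Scx-/- bone, against 5.85, 385 and 0 CPM in wild-type and 0, 8.79 and 0 in Scx-/- lung (log2 fold change 4.41 ± 0.78, adjusted p = 1.47e-06, edgeR). Lung wild-type replicate 2 was the only lung library in the range of bone, and the ratio of the group means was 7.06. *Ngp* was at 5.85, 149.8 and 188 CPM in wild-type lung and 0 in all 3 Scx-/- lung libraries (log2 fold change 5.59 ± 0.90, adjusted p = 6.72e-08, edgeR), with a ratio of the means of 7.54. *Ltf* had 188 counts in bone and 3 in lung (5.59 ± 1.12, adjusted p = 5.14e-05, edgeR). *Elane* had 29 counts in bone and 0 in lung, at least 13.8-fold higher against a floor of 3 counts over the lung libraries (adjusted p = 0.0473, edgeR). Its call was lost without any of 9 single libraries and with DESeq2.

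*Lcn2* did not follow. It was at 243, 134 and 148.5 CPM in wild-type bone and 266, 24.1 and 284 in Scx-/- bone, against 137, 257 and 169 CPM in wild-type and 215, 242 and 270.3 in Scx-/- lung. The ranges overlapped and the log2 fold change was -0.11 ± 0.72 (adjusted p = 1, edgeR). *Prtn3* (4.31 ± 1.73, adjusted p = 0.156, edgeR) and *Retnlg* (1.83 ± 0.82, adjusted p = 0.218) did not pass. With wild-type libraries alone, only *S100a9* was called, and *Camp* and *Ngp* differed by 1.96 and 2.13 (adjusted p = 0.521 each). With Scx-/- libraries alone, a choice made after the results were seen, 6 genes were called, with *Retnlg* (3.67, adjusted p = 0.00442, edgeR) in place of *Elane* (adjusted p = 0.421), with 6.85 for *Camp* and with *Ngp* at 0 in lung.

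**Figure D3:**
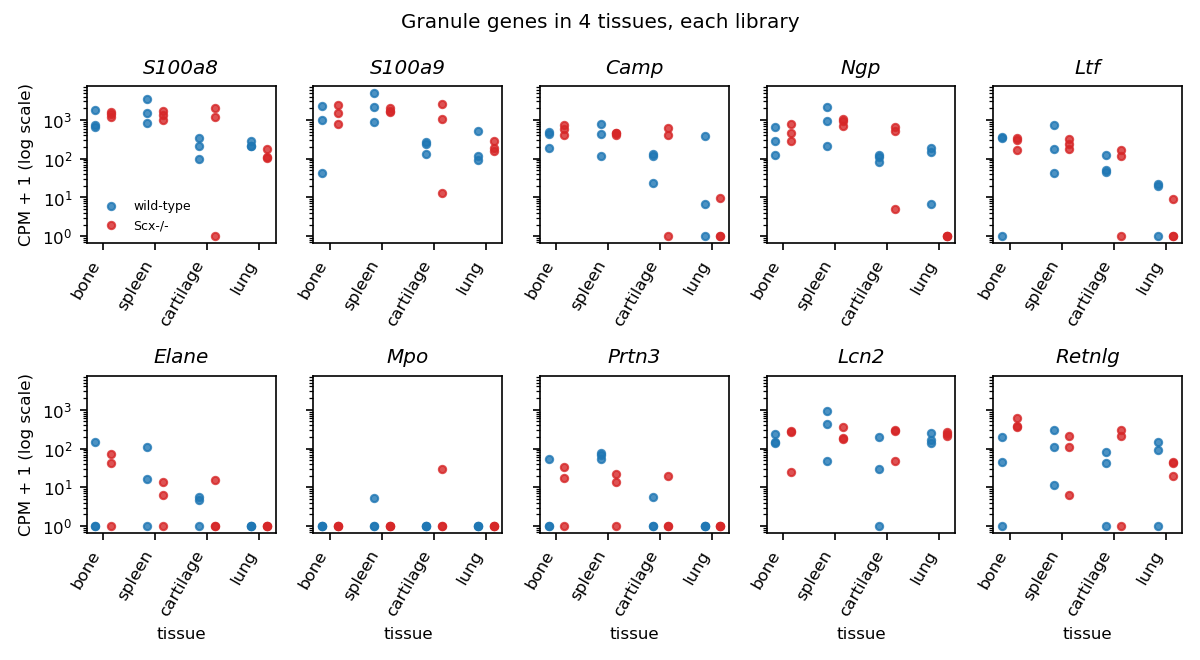
CPM plus 1 (log scale) of each of the 10 genes in bone, spleen, cartilage and lung. Points are libraries, blue for wild-type and red for Scx-/-; *S100a8* in bone (669 to 1794 CPM) lies above lung (105.5 to 289.5 CPM), while *Lcn2* overlaps in all 4 tissues.

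The make-up of the counts differed between libraries of lung. *Camp*, *Ngp* and *Ltf* together took 22.8% to 35.8% of the counts of the 10 genes in bone and 16.4% to 33.1% in spleen. In lung they took 36.1% (26 of 72 counts, exact Clopper-Pearson 95% confidence interval 25.1% to 48.3%) in wild-type replicate 2 and 25% (11 of 44, 13.2% to 40.3%) in replicate 3. In the other 4 lung libraries they took 0% to 1.82% (4 of 220 in wild-type replicate 1, 0.498% to 4.59%). *Lcn2* took 16.7% to 48.3% in lung, 0.556% to 10.8% in bone and 2.14% to 7.33% in spleen, so that the ranges of lung and the other two did not overlap. In cartilage it took from 0% to 19.3% in 5 libraries (56 of 290 counts in wild-type replicate 3, within the range of lung) and 73.3% of 15 counts in Scx-/- replicate 1. These shares were chosen after the values were seen and carry no test, and the intervals cover counting error only. The 2 lung libraries with *Camp* or *Ngp* above 100 CPM were also the shallowest, with 46732 and 53197 counts.

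**Figure D4:**
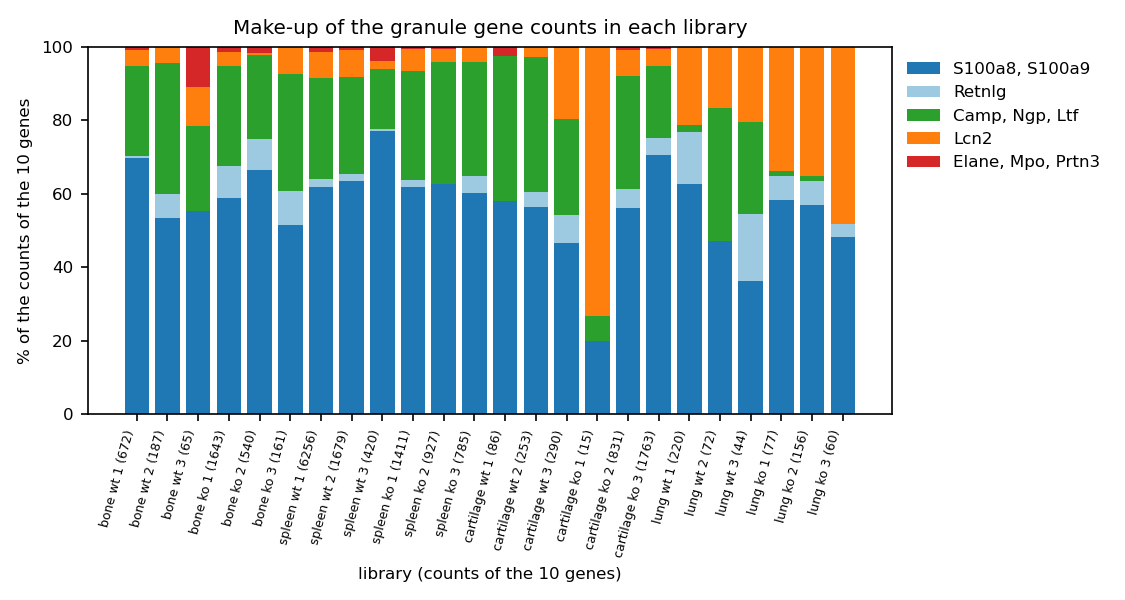
Share of the counts of the 10 genes, in percent, taken by each gene group in each bone, spleen, cartilage and lung library, with the number of counts in brackets (wt, wild-type; ko, Scx-/-). Lung libraries hold 16.7% to 48.3% *Lcn2* (orange), and 4 of 6 hold at most 1.82% *Camp*, *Ngp* and *Ltf* (green); the cartilage bar with 73.3% *Lcn2* rests on 15 counts.

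For bone against cartilage, none of the 10 genes was called by edgeR, where 1.28% of 14858 genes were, with 1 (*Camp*, log2 fold change 1.04 ± 0.51) at an unadjusted p under 0.05 and 0 called by DESeq2. At that unadjusted p there were 4 with RLE scaling or library totals and 2 with DESeq2. The genotype effect was compared between bone and each of the other three by an interaction term. No member was called for spleen (0% of all genes), lung (0%) or cartilage (0%). At an unadjusted p under 0.05 there were 1, 3 and 0 members, with the largest interaction for *Ngp* between bone and lung (log2 7.02 ± 1.74, a fitted value that rests on 0 counts in Scx-/- lung, adjusted p = 0.418, edgeR), and no other tool was run on the interaction.

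Most other genes of neutrophils were not called, and several were near the floor in bone. *Itgam*, *Csf3r* and *Cxcr2* had means of 25.8, 22.0 and 21.8 CPM there, where 3 counts stood for 12.5 to 71.0 CPM in a library. Such genes could hardly be tested. Of 28 other neutrophil genes, 24 were tested for bone against lung. Of these, 2 were called higher in bone (*Mmp9* and *Ctsg*), where 1.81% of all genes were, and 2 lower (*Hp* and *Lyz2*). *Mmp9*, gelatinase B, was at 1182 ± 638 CPM in bone, 299 ± 101 in cartilage, 47.8 ± 68.2 in spleen and 2.44 ± 5.97 in lung (log2 fold change over lung 8.55 ± 0.74, adjusted p = 1.14e-27, edgeR). *Mmp9* is also made by osteoclasts. Its level was higher in bone than in spleen as well (4.29 ± 0.59, adjusted p = 1.65e-10, edgeR). It was the only one of 27 tested there to be called, where 4.98% of all genes were. The next genes of this list by level in bone were *Chil3* (288 ± 187 CPM) and *Anxa1* (195 ± 128 CPM). *Hp*, haptoglobin, was at 970.5 ± 272 CPM in lung and 96.7 ± 131 in bone, and is a product of liver (4524 ± 641 CPM) and not of neutrophils alone. Against cartilage, *Mmp9* and *Ncf1* of 24 were called higher in bone, where 1.28% of all genes were called in either direction.

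Of 10 partners and inhibitors of the granule proteins, none was called in any of the 3 comparisons of bone (8, 9 and 9 tested, edgeR). *Srgn*, serglycin, which packs granule proteases, was at 433 ± 222 CPM in spleen, 251 ± 156 in lung and 195 ± 208 in bone. *Lrp2*, megalin, an uptake receptor for *Lcn2*, was at 1783 ± 169 CPM in kidney, where *Lcn2* itself was at 17.8 CPM. *Ager*, a receptor for calprotectin, had 0 counts in all 96 libraries, lung included, so nothing can be read from it for any tissue.

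Between genotypes, each of the 16 tissues was tested by edgeR with 3 against 3 libraries, in 107 pairs of gene and tissue. Only 2 pairs were called at an adjusted p under 0.05, *Ltf* and *Lcn2* in rectum, both higher in Scx-/- mice, out of 5 members tested there and 0.441% of all 14292 genes. In the other 15 tissues no member was called. For all genes, the share called was 0% in bone, cortex and intestine alike (0 of the genes tested in each). It was 0.00708% for hippocampus, 0.0072% for spleen, 0.00727% for lung, 0.0091% for adipose, 0.0222% for cartilage, 0.0329% for vascular samples and 0.0391% for heart. It reached 0.0482% for muscle, 0.0609% for stomach, 0.112% for bladder, 0.195% for kidney and 0.442% for liver. DESeq2 called 1 pair in all, *Lcn2* in rectum.

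The study used looser thresholds, a log2 fold change beyond 1 in either direction and p under 0.05 before adjustment, at which 9 of the 107 pairs passed, the same number as at the unadjusted p alone (edgeR). The 9 were 3 of 5 members in rectum (5% of all genes), 3 of 10 in cartilage (3.17%; 1 with DESeq2), 2 of 7 in lung (2.69%) and 1 of 9 in bone (3.51%). With DESeq2, the tool the study used for this comparison, 7 passed. None passed in the other 12 tissues, where the share over all genes was 2.77% for cortex, 2.99% for spleen, 3.24% for adipose, 3.31% for stomach, 3.41% for heart, 3.76% for bladder, 3.91% for hippocampus, 4.19% for vascular samples, 4.25% for intestine, 4.29% for liver, 4.32% for kidney and 4.54% for muscle.

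In rectum, *Ltf* had 0 counts in the 3 wild-type libraries and 168, 6 and 46 in the Scx-/- libraries, or 2134, 26 and 146.5 CPM. All Scx-/- libraries were above all wild-type libraries, as for 3 of the 5 members tested and, in either direction, 8.11% of all genes. With the counts of each group pooled, *Ltf* was at least 41.2-fold higher against a floor of 3 counts over the wild-type group (adjusted p = 4.84e-10, edgeR). Scx-/- replicate 1 gave 168 of the 220 counts behind that limit. *Lcn2* had 83 counts in Scx-/- replicate 1, 1054.5 CPM, and 0 in the other 5 libraries, at least 15.6-fold higher over the group (adjusted p = 0.00343, edgeR). Without Scx-/- replicate 1, *Ltf* was not called (adjusted p = 0.877, edgeR) and *Lcn2* was at 0. Leaving out any 1 wild-type library ended the call of *Lcn2* (adjusted p = 0.297 to 0.831, edgeR) and not that of *Ltf*. DESeq2, by contrast, called *Lcn2* and not *Ltf*. With RLE scaling, library totals or the replicate block, 1 member was called. *S100a9*, at 25.4, 21.7 and 118 CPM in Scx-/- and 0 in wild-type libraries, passed at the unadjusted p alone (adjusted p = 0.706, edgeR). *Camp*, *Ngp*, *Elane*, *Mpo* and *Prtn3* had 0 counts in every rectum library.

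Squamous epithelial genes were also higher in Scx-/- than in wild-type rectum. The 13 listed genes summed to 4.60, 12.03 and 40.2 CPM in wild-type libraries and 20938, 10092 and 8318 CPM in Scx-/- libraries, highest in the library with the most *Ltf* and *Lcn2*. Scx-/- replicate 2 had more of these genes than replicate 3 but less *Ltf* (26 against 146.5 CPM), and *Lcn2* was at 0 in both. Of the 13, 10 were called higher in Scx-/- rectum, among them *Krt5* (2096 ± 2505 CPM, SD, n = 3, against 0) and *Lor* (1533 ± 439 against 12.2 ± 7.75). The others were *Krt14*, *Krt13*, *Krt4*, *Krt6a*, *Sprr3*, *Sprr1a*, *Krtdap* and *Sbsn*. *BC100530*, a stefin A gene of the neutrophil list, was at 1690, 1209 and 1309 CPM against 0 (adjusted p = 1.64e-19, edgeR), the only one of 14 tested genes of that list to be called. The muscle genes *Acta1* (1.74 ± 0.46), *Ckm* (2.44 ± 0.58) and *Tnnt3* (2.83 ± 0.69) rose too, and *Hbb-bs* was called lower (adjusted p = 0.00174, edgeR) on the counts of 1 wild-type library, with 0 in the other 5. Simple epithelium genes summed to 7969, 9886 and 12057 CPM in wild-type and to less, 2198, 6660 and 7225 CPM, in Scx-/- libraries, lowest in the library with the most *Ltf* and *Lcn2*. None of the 5 tested genes of that list was called (edgeR, median log2 fold change -0.66). The part of any of these in the 2 calls was not tested.

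**Figure D5:**
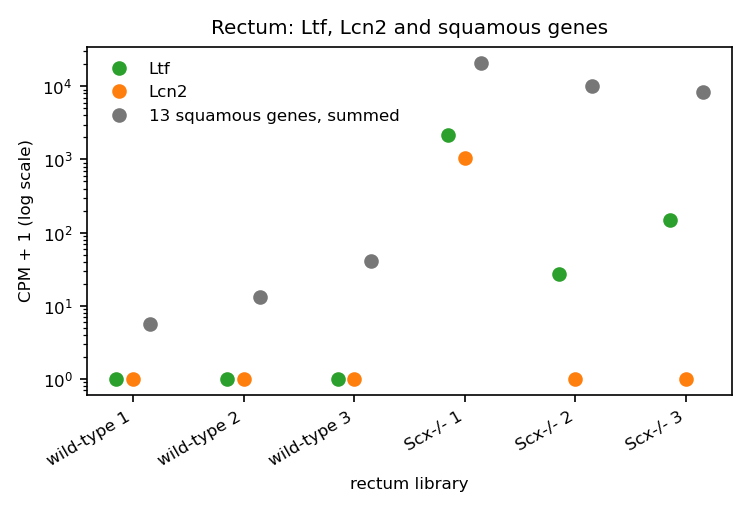
CPM plus 1 (log scale) of *Ltf* (green), *Lcn2* (orange) and the sum of 13 squamous epithelial genes (grey) in each rectum library. The Scx-/- libraries hold 8318 to 20938 CPM of squamous genes against 4.60 to 40.2 CPM in wild-type, and Scx-/- replicate 1 has the highest values of all 3 measures.

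In bone, 8 of the 9 tested genes overlapped between genotypes, and 5.72% of all 12344 genes tested did not overlap. *Retnlg* did not, with 43.3, 201 and 0 CPM in wild-type and 607, 370.2 and 355 CPM in Scx-/- libraries (log2 fold change 2.65 ± 1.01, adjusted p = 0.636, edgeR). The median log2 fold change of the 9 genes was 0.47, against 0.08 over all genes and 2.00 over the 23 other neutrophil genes tested, of which 0 were called. Single libraries moved both medians. Without Scx-/- replicate 1 it was 0.04, against -0.70 over all genes, without wild-type replicate 1 it was 1.21 against 0.73, and without wild-type replicate 3 it was 0.23 against 0.26. In spleen, *Prtn3* was the 1 gene of 10 without overlap (7.83% of all genes), at 77.1, 51.7 and 68.5 CPM in wild-type and 12.8, 21.4 and 0 CPM in Scx-/- libraries (-2.22 ± 1.62, adjusted p = 0.788, edgeR). The median over the 10 genes in spleen was -0.44, against -0.18 over all genes, and -0.11 with the replicate block. It turned to 0.54, with 7 of 9 genes above 0, without wild-type replicate 1, the library with the highest summed CPM, and was -0.93 without wild-type replicate 3, so no direction can be given for spleen.

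In cartilage, the median log2 fold change of the 10 tested genes was 1.96, against 0.07 over all genes, and none was called. The median was 0.92 over the 23 other neutrophil genes tested and 2.69 over 8 partners and inhibitors of the granule proteins. For other blood cells it was 2.14 over 7 B cell genes, 1.90 over 10 macrophage genes, 0.82 over 11 erythroid genes, 0.75 over 3 eosinophil genes and -1.17 over 3 mast cell and basophil genes. All 10 values were above 0, but 8 of 10 were with the replicate block (median 1.12) or without Scx-/- replicate 3 (median 1.31), and 8 of 9 without Scx-/- replicate 2. *Ngp* was at 82.6, 125 and 112 CPM in wild-type and 4.14, 662 and 514.5 CPM in Scx-/- libraries (1.93 ± 0.60, adjusted p = 0.769, edgeR). Without Scx-/- replicate 1, 3 genes were called higher in Scx-/- cartilage by edgeR, *S100a8* (2.96, adjusted p = 1.92e-07), *S100a9* (3.12, adjusted p = 1.24e-08) and *Ngp* (2.52, adjusted p = 0.0481). That library held 15 counts of the 10 genes, while its total of 241844 counts was similar to the others. In the fit without it, the median log2 fold change was 2.55 over the 10 genes and -0.11 over all genes. Leaving out any other cartilage library gave 0 calls among the members. Erythroid genes summed to 3970 to 64492 CPM in the Scx-/- and 5488 to 20680 CPM in the wild-type cartilage libraries, and *Hba-a1* was called higher in Scx-/- cartilage (1.76 ± 0.39, adjusted p = 0.047, edgeR). The part of these cells in the levels was not tested.

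In lung, *Ngp* had 19 counts in wild-type libraries (2, 7 and 10) and 0 in Scx-/- libraries. With the counts of each group pooled, this was 6.53-fold lower in Scx-/- lung against a floor of 3 counts (adjusted p = 0.741, edgeR). That limit leaves out the spread between libraries. Wild-type replicate 1, at 5.85 CPM, lay below its own floor of 8.77 CPM. *Camp* had 20 counts in wild-type libraries, 18 of them in replicate 2, and 2 in Scx-/- libraries (adjusted p = 0.741, edgeR). *S100a8* lay at 289.5, 214 and 207 CPM in wild-type and 182, 105.5 and 112 CPM in Scx-/- lung, without overlap, as for 2 of the 7 members tested and 5.91% of all genes (log2 fold change -0.64 ± 0.92, adjusted p = 0.893, edgeR). *Lcn2* was at 188 ± 61.8 and 242 ± 27.7 CPM (SD, n = 3). Of the lung markers, *Scgb1a1*, a product of club cells, was called higher in Scx-/- lung (0.81 ± 0.12, adjusted p = 2.52e-07, edgeR).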

How the data were processed

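Bulk RNA was measured in 96 libraries, 6 for each of 16 tissues, with both genotypes in equal number. Per the labels, the authors mapped reads to mm10 with Bowtie2 and counted them per gene with HTSeq, and the deposited values are raw counts. The sources used here give no tool versions, annotation, strand setting, use of molecular identifiers or link between libraries and mice, so p-values measure the spread between libraries, which may be technical. The paper describes libraries enriched in 3′ ends, and the record a Smart-seq2 base.

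Levels are CPM on library totals (11244 to 1658192 counts, median 251640). Fold limits against a floor of 3 counts pool the counts of each group and leave out the spread between libraries. Tests used edgeR 4.0.16 (R 4.3.3) with TMM factors, glmQLFit with robust estimation, genes at 0 in all libraries of a comparison removed, and Benjamini-Hochberg adjustment over all genes tested. DESeq2 1.42.0 was an alternative. The share of primary granule genes was tested by exact permutation. Python 3.11.15, numpy 2.4.6, pandas 2.3.3, scipy 1.17.1 and matplotlib 3.10.9 were used. The fits were tested on simulated data with 200 genes changed. Of 4-fold changes, 0 were recovered between genotypes in bone, 1 in rectum and 3 for bone against spleen. Of 16-fold changes, 48, 73 and 132 were recovered. A gene not called, between genotypes or between tissues, is therefore not shown to be unchanged. Any pair of replicates differed by more than counting error (chi-square per degree of freedom at least 6.93 over 96 pairs). Replicate numbers were not taken to pair libraries, since in 0 of 16 genotype comparisons did all 3 same-numbered pairs correlate above 0.1.

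The members and the gene lists were chosen with earlier results of these data known. Named are all 10 members, listed genes with an adjusted p under 0.05 in bone, spleen, lung and rectum, the 3 other neutrophil genes highest in bone, and the 5 genes most like the summed level. Other genes named were chosen after their values were seen. Promoter sequences are from RefSeq (GRCm38.p6). The alternatives tried were scaling by RLE or by library totals, filterByExpr, DESeq2, a replicate block, wild-type or Scx-/- libraries only, other denominators, and leaving out each library.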

Additional observations from a re-analysis of the deposited data

Results flagged for a closer look

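For the summed level of the 10 genes, the highest or lowest of the 6 libraries of a tissue was compared with the rest by Dixon's criterion in 16 tissues. Chance marks about 1 in 20 groups drawn from a single normal distribution. These groups mix both genotypes and in some tissues rest on few counts, so that rate need not hold here. The highest library stood apart in 5 tissues. Spleen wild-type replicate 1 held 13394 CPM, rectum Scx-/- replicate 1 3227 CPM, lung wild-type replicate 2 1541 CPM, intestine wild-type replicate 3 213 CPM and bladder Scx-/- replicate 1 116 CPM. In rectum these counts were *Ltf* and *Lcn2*, in intestine 8 counts of *Lcn2* and 12 of *Retnlg*, and in bladder 48 counts over 5 genes, *S100a8* first. The lung library held 72 counts of the 10 genes in a total of 46732. No genotype effect differed between bone and the tissues compared with it at an adjusted p under 0.05 by edgeR's interaction term.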

How the results depend on the processing

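The number of members called in rectum was 2, and fell to 1 with RLE scaling, library totals, DESeq2 and the replicate block, to 0 with filterByExpr, which left no member to test, and to between 0 and 2 without single libraries. For bone against spleen it was 0, and 1 with filterByExpr (*Ngp*) or the replicate block (*S100a9*), and 0 to 2 without single libraries. For bone against lung it was 6, 1 with wild-type libraries only, 5 with the replicate block, and 5 or 6 without single libraries. In cartilage between genotypes it was 0, and 0 to 3 without single libraries. The replicate block moved no other count of members at an adjusted p under 0.05. At the looser thresholds of the study it gave 2 members in bone (1 without the block), 1 in cartilage (3), 1 in lung (2) and 2 in rectum (3), and the cause of these changes was not tested. The difference in the share of primary granule genes was 1.25 percentage points, also with the replicate block, and ran from -0.42 to 1.77 without single libraries, the sign turning without bone wild-type replicate 3. With TMM over 96 libraries the summed level moved beyond the spread in adipose (57.1 CPM) and liver (132 CPM). TMM moved the median log2 fold change of all genes by -0.42 (intestine) to 0.25 (muscle) relative to library totals. Over the bone libraries the floor of 3 counts was 4.77 CPM.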
